A study of Mus musculus with 8 samples.

Results

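The RNA of whole striatal lysate was compared between HD and WT mice, on the 2 arrays of unprecipitated input among the 8 arrays of a study of mRNAs that associate with CPEB1 and CPEB4, a pair of proteins that bind 3' sequences and control poly(A) tail length and translation. The HD input came from the pooled striata of male HD mice aged 7 to 8 months. The WT input came from the pooled striata of male WT mice of the same age. Both lysates were crosslinked with formaldehyde and precleared with bare beads before the input aliquot was set aside. Both RNAs were amplified over 27 cycles, and 8 µg of cDNA went onto each array. HD is not written out in the labels, which also name no mouse line, and it is unclear whether the 4 mice of the design text are a number per genotype or in all. The other 6 arrays hold the CPEB1, CPEB4 and rabbit IgG precipitates of the same lysates. Each pool counts as 1 sample, so no difference between HD and WT could be tested, and every difference given here is a description of 2 arrays. Values are log2 probe set summaries. A difference is HD minus WT, so 1 means 2-fold higher in HD. Of 17097 genes with a probe set of a single symbol, the 11345 whose brightest probe set averaged above 4.23 over the 8 arrays, the median of all probe sets, were compared.

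The striatum is built mostly of medium spiny neurons, inhibitory projection neurons that answer dopamine and glutamate. Those of the indirect pathway carry the dopamine receptor Drd2 and the peptide enkephalin, and those of the direct pathway carry Drd1, dynorphin and substance P. Signalling through cyclic nucleotides, with its cyclases, phosphodiesterases and phosphatase regulators, is unusually rich in these cells. In Huntington's disease and its mouse models, loss of transcripts typical of medium spiny neurons is a well-known feature, and mutant huntingtin is the cause of that disease.

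The input arrays were similar in their median, 4.19 for HD and 4.28 for WT over all probe sets, but not in their spread. The HD input had a standard deviation of 1.51 across the compared genes, against 1.33 in the WT input, and 1160 genes lay above a value of 8 in HD input, against 770 in WT input. The correlation of HD input with WT input was r = 0.792 across genes, and genes are no independent replicates. The 18 hybridisation spike-in probe sets were all lower in HD input, with a mean of 10.56 against 10.89 in WT input. The gap between the 3' and 5' control probe sets, a sign of RNA length, was -0.25 in HD input and -0.61 in WT input for Gapdh, and -0.78 in HD input and -0.12 in WT input for Actb, so these controls gave no common direction.

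At 2-fold, 1277 of the 11345 genes (11.3%) were higher in HD input and 503 (4.43%) were lower. At 1.5-fold the shares were 17.0% higher and 13.8% lower, and at 3-fold 6.48% and 2.02%. The median gene differed by -0.08, and 56.6% of genes lay below 0. Counts of list members are to be read beside these shares. After quantile normalization of the 8 arrays the split became 1101 higher and 791 lower, so the size of the excess of higher genes depended on the scaling. It also differed by level. Genes were split by mean input level into deciles, and in the top decile the median difference was 0.46, with 35.6% of genes 2-fold higher in HD and 9.52% lower. In the 8 lowest deciles the medians lay between -0.14 and -0.05. The part of the wider HD array in these values was not tested, and the main gene groups, and others where it matters, are therefore also given relative to genes of their own level, as the difference minus the median of the gene's decile.

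**Figure D1:**
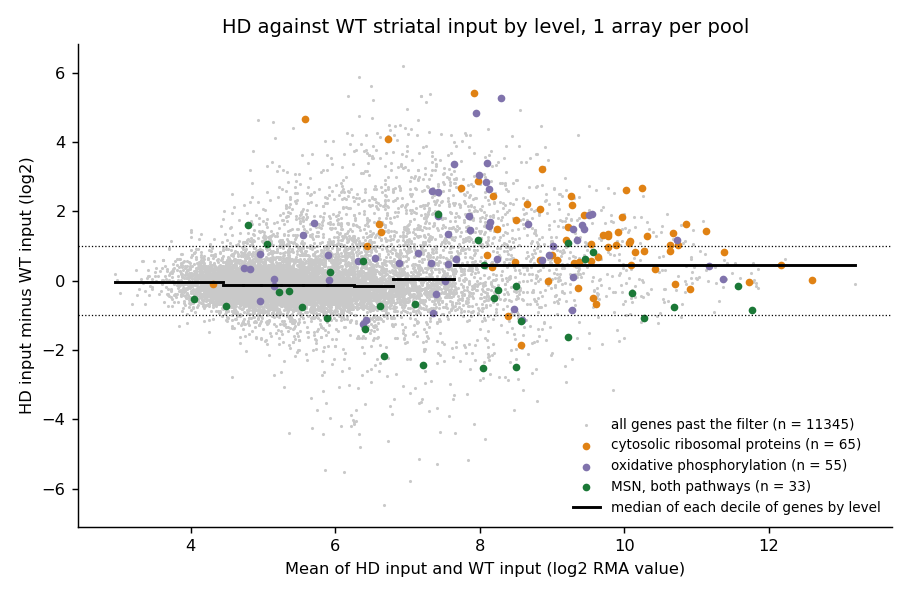
Each grey point is 1 of 11345 genes, with the mean of the HD and WT input values on the horizontal axis (log2 RMA value) and HD minus WT input on the vertical axis (log2). Coloured points are ribosomal protein, oxidative phosphorylation and medium spiny neuron (MSN) genes, black bars are medians of deciles of genes by level, and dotted lines mark 2-fold. The bar of the top decile, which holds 17 of the 33 medium spiny neuron genes, stands at 0.46.

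How far 1 probe set can be trusted was read from the other probe sets of the same gene, which see the same 2 RNAs through different probes. Over 4807 such pairs from 3407 genes the HD minus WT differences correlated at only r = 0.10, and 53.6% of pairs had the same sign. The same pairs correlated at r = 0.31 for HD minus WT in the CPEB1 precipitates and at 0.37 for CPEB4 precipitate minus input within the WT pool. Among pairs whose higher input value was at least 8 on both probe sets, 298 in all, r was 0.21 and 72.1% shared a sign. Of the second probe sets of abundant genes 2-fold higher in HD, 83.3% lay above 0. Most of all second probe sets at that level did so too, with 28.2% below 0. Of the second probe sets of these higher genes 62.3% were 2-fold higher themselves, against 50.7% of all second probe sets at that level. For abundant genes 2-fold lower in HD, 11 of 24 second probe sets (45.8%) lay below 0, against 28.2% of all at that level. Genes reach that level through the pool where they are higher, and 46.7% of all genes at that level were 2-fold higher in HD. Part of the shared sign among abundant genes is therefore set by the selection. Single genes are thus weakly measured, and the description rests mainly on groups of genes. Abundant genes and genes with a second probe set past 2-fold are given beside them.

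**Figure D2:**
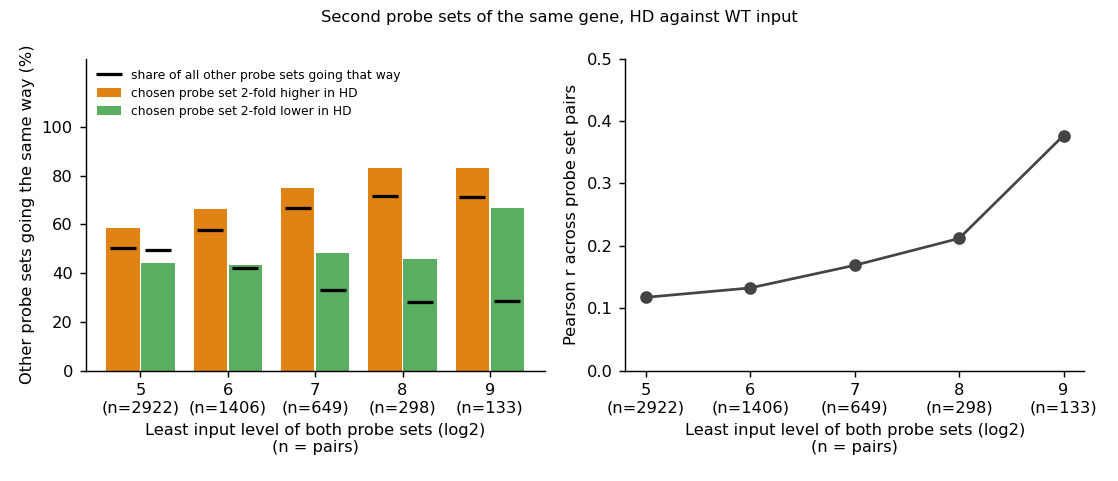
Left, the share in percent of other probe sets that go the same way as a chosen probe set 2-fold higher (orange) or lower (green) in HD input, by the least level (log2) that the higher input value of both probe sets reaches; black marks are the share of all other probe sets at that level going that way. Right, Pearson r of the HD minus WT difference across the same pairs, from 0.12 at a level of 5 to 0.38 at a level of 9.

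Genes that mark medium spiny neurons of both pathways were lower in HD input as a group. Of 38 genes listed, 33 passed the filter, 23 of them lay below 0 and their median was -0.50, against -0.08 over all genes. At 2-fold, 9 of the 33 (27.3%) were lower and 5 (15.2%) were higher, against 4.43% and 11.3% of all genes. Relative to genes of the same level the median was -0.62. Of the 19 members with an input value of at least 8, 13 lay below 0, where 30.7% of all 1389 such genes did. At 2-fold 6 of these 19 were lower and 3 higher, where 12.4% and 46.7% of the 1389 were. Genes reach that level through the pool where they are higher, so these counts are no separate support for the direction. Among 31 further probe sets of the 33 genes, 19 lay below 0, with a median of -0.27, where 52.6% of all further probe sets lay below 0. In such whole-tissue RNA, fewer medium spiny neurons and less RNA per neuron cannot be told apart.

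The 4 members with the lowest differences all differed by more than 2 on the log2 scale. Arpp21, a phosphoprotein regulated by cyclic AMP, had 6.78 in HD input against 9.31 in WT input, 5.76-fold lower in HD, and its second probe set had 4.94 against 7.38. Pde1b, a calcium-dependent phosphodiesterase, had 7.25 in HD input against 9.74 in WT input, 5.64-fold lower. Rxrg, a retinoid X receptor, had 5.99 against 8.44, 5.44-fold lower in HD. These genes have no further probe set past the filter except Arpp21. Rgs4, which speeds the switching-off of G proteins, had 5.59 in HD input against 7.75 in WT input, while its second probe set had 6.03 against 6.91. The tyrosine phosphatase Ptpn5, known as STEP, had 8.41 in HD input against 10.04 in WT input, but its second probe set, far dimmer, had 5.87 against 5.77. Itpka, Ppp1r16b, Cnr1 and Pcp4 completed the 9 members lower at 2-fold, with differences from -1.40 to -1.08; Cnr1, the CB1 cannabinoid receptor, had 5.35 in HD input and 6.43 in WT input.

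Of the members brighter than Ptpn5 in WT input, only Pcp4 was lower in HD by 2-fold. Pde10a, the phosphodiesterase most typical of these neurons, had 11.34 in HD input against 12.20 in WT input, 1.81-fold lower in HD. Its 3 further probe sets past the filter were also lower in HD, with differences of -0.27, -0.94 and -1.69. Ppp1r1b, which encodes DARPP-32, had 10.30 in HD input against 11.07 in WT input. Tmem158 was lower on all 3 of its probe sets, by amounts between -0.36 and -0.56. Adcy5, the main striatal adenylyl cyclase, had 11.49 in HD input against 11.65 in WT input on its brightest probe set, but 3.65 against 9.15 on the other, so its size of change rests on the probe chosen.

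The 5 members higher in HD input were Camk4, Pde2a, Foxp1, Rgs9 and Gnal. Camk4, a calcium and calmodulin dependent kinase, had 8.38 in HD input against 6.45 in WT input, and its other probe sets past the filter had 8.20 against 6.56 and 7.95 against 7.72. Rgs9, a striatal partner of dopamine receptor signalling, had 9.76 in HD input against 8.67 in WT input, with no further probe set to set beside it. Foxp1, a transcription factor of these neurons, had 8.56 in HD input against 7.39 in WT input, while its other 5 probe sets past the filter lay between -0.72 and 0.10. Gnal, the striatal G protein subunit that couples Drd1 and Adora2a to the cyclase, had 5.58 in HD input against 4.52 in WT input, and its brighter probe sets in input had 6.21 against 7.21 and 6.39 against 6.81, the opposite way. The list was thus mixed in direction, and among these 5 Camk4 alone had a second probe set past 2-fold the same way.

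**Figure D3:**
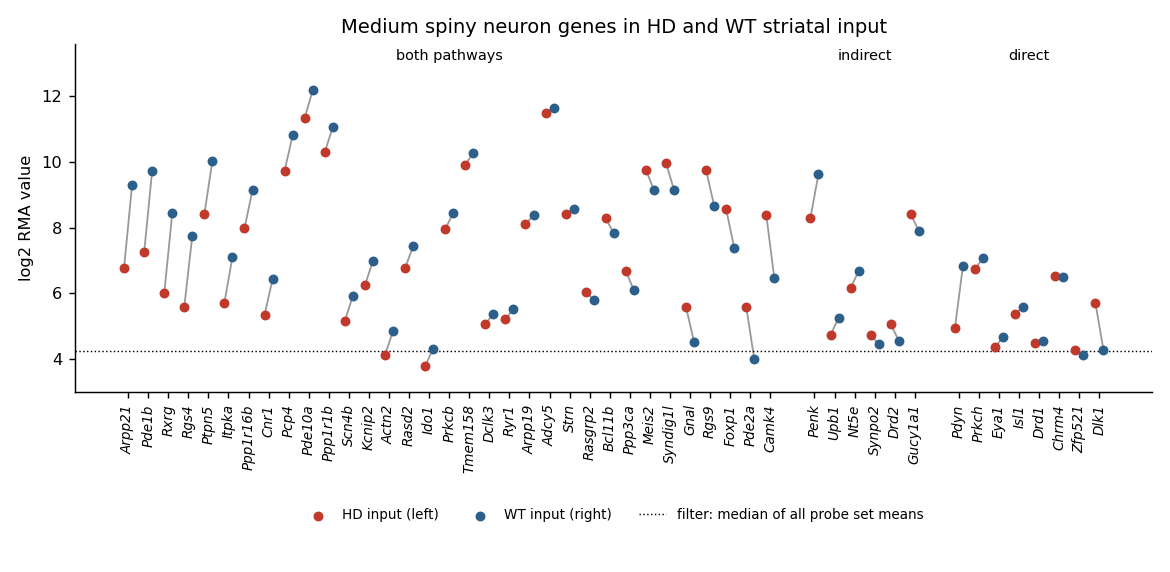
HD input (red, left) and WT input (blue, right) values (log2 RMA value) of every medium spiny neuron gene past the filter, ordered by HD minus WT within each list; grey lines join the pair and the dotted line is the filter of 4.23. In the list of both pathways 23 of 33 genes lie lower in HD, from -2.53 for Arpp21 to 1.93 for Camk4.

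Genes of a single pathway were few past the filter. For the indirect pathway 7 of 11 listed genes were named by a single-symbol probe set and 6 passed, with a median of -0.12 and 3 below 0. Penk, the enkephalin precursor, had 8.30 in HD input against 9.64 in WT input, 2.53-fold lower in HD. It was lower in HD by a like amount in every precipitate, with differences of -1.02 in CPEB1, -1.10 in CPEB4 and -1.07 in IgG. Drd2 was dim in both pools, at 5.05 in HD input and 4.56 in WT input. For the direct pathway 12 of 13 were named and 8 passed, with a median of -0.14 and 5 below 0. Pdyn, the dynorphin precursor, had 4.95 in HD input against 6.85 in WT input, 3.71-fold lower in HD. It differed by 0.17 in CPEB1, -2.73 in CPEB4 and -3.73 in IgG. Drd1, at 4.47 in HD input and 4.53 in WT input, was near the filter, and Tac1, the substance P precursor, did not reach it. Dlk1, a Notch-like ligand, went the other way, with 5.70 in HD input against 4.27 in WT input. Both peptide precursors past the filter were thus lower in HD, one per pathway, and neither has a further probe set.

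Phosphodiesterases as a family had a median of -0.30 over 14 genes, with 4 lower at 2-fold (28.6%), 1 higher (7.14%) and 9 below 0. Over all genes 4.43% were lower, 11.3% higher and 56.6% below 0. Beside Pde1b, the lower genes were Pde7b, at 4.66 in HD input against 6.97 in WT input, Pde4b, at 4.09 against 5.72, and Pde6d. Pde7b and Pde4b hydrolyse cyclic AMP and each has 1 further probe set past the filter that did not differ 2-fold in the same direction. The RGS proteins, which limit G protein signals, had a median of 0.18 over 14 genes, with 3 higher (21.4%), 2 lower (14.3%) and 5 below 0. Rgs2 had 7.95 in HD input against 6.67 in WT input and Rgs7 had 5.53 against 4.19, while Rgs10 had 6.07 against 7.23. Of their 8 further probe sets 7 lay below 0, where 52.6% of all did, so the direction of this list depended on the probe sets.

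In the precipitates of the same 2 pools the medium spiny neuron genes stood further apart than in input. All 33 members lay below 0 in each of the CPEB1, CPEB4 and IgG precipitates, with medians of -1.96, -1.19 and -1.93. Below 0 lay 49.7%, 45.4% and 44.3% of all genes in those fractions, and their medians were near 0. Bright genes stood lower than that: the top decile by input level, which holds 17 of the 33 members, had a median of -0.77 in CPEB1, -0.08 in CPEB4 and -0.33 in IgG. Each precipitate array was wider in WT than in HD. In CPEB1, 1607 genes lay above a value of 8 in WT and 866 in HD, in CPEB4 1810 and 1553, and in IgG 924 and 648. The deciles are of input level only, and the part of the wider WT precipitate arrays in these values was not tested. At 2-fold, 28 members were lower in HD in the CPEB1 precipitates, 21 in CPEB4 and 25 in IgG, where 17.9%, 11.6% and 10.0% of all genes were. None of the 33 was 2-fold higher, where 3.34%, 4.55% and 5.32% of all genes were. The genes higher in HD input were no exception. Rgs9 differed by 1.09 in input, but by -2.57 in CPEB1, -1.40 in CPEB4 and -2.50 in IgG. Camk4, at 1.93 in input, differed by -1.70, -0.41 and -4.56 in the same order. Scn4b, a sodium channel beta subunit, had 5.16 in HD input and 5.92 in WT input, a difference of -0.76, and differed by -3.48, -4.10 and -1.93 in the precipitates. The IgG precipitate holds no specific antibody, and it too was lower in HD for these genes. Across all genes the input difference correlated with those of the precipitates at r = -0.16 for CPEB1, -0.02 for CPEB4 and -0.09 for IgG; these arrays share the pools of mice but no array with input.

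**Figure D4:**
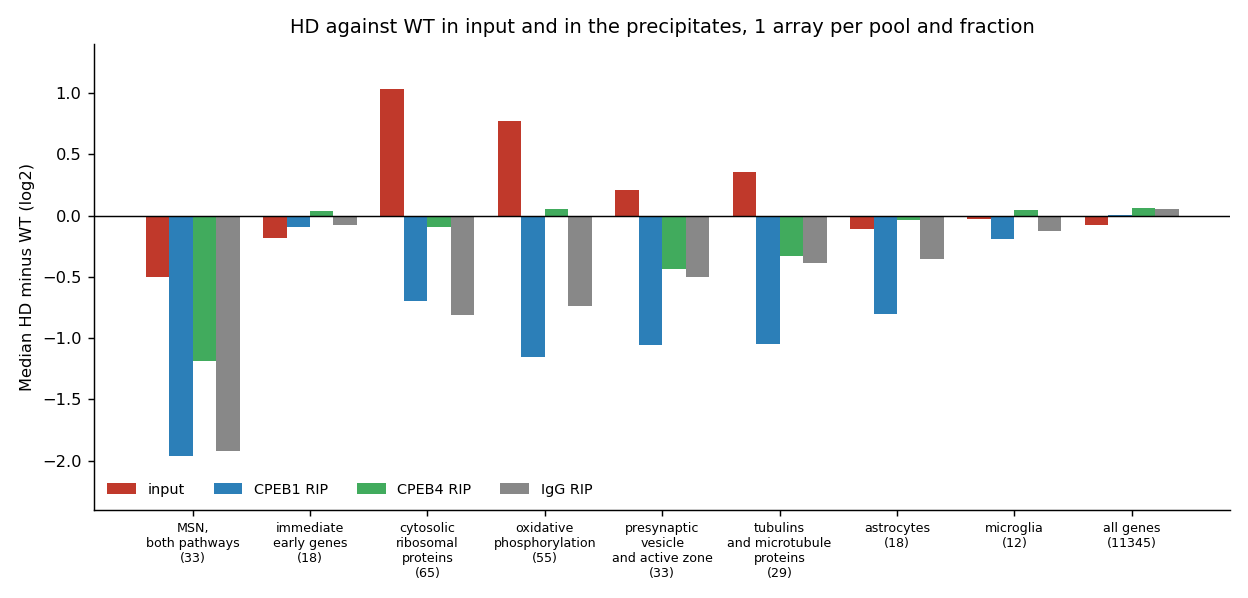
Bars are the median HD minus WT difference (log2) of 8 gene lists and of all genes in input (red), CPEB1 (blue), CPEB4 (green) and IgG (grey) precipitates, each from 1 HD and 1 WT array, with the number of genes in brackets. The medium spiny neuron list (MSN) is below 0 in all 4 fractions, from -1.96 to -0.50, while ribosomal and oxidative phosphorylation genes are above 0 in input and below 0 in CPEB1 and IgG.

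Genes switched on by neuronal activity, the immediate early genes, had a median of -0.19 over 18 of 25, with 11 below 0. Of the 18, 3 were 2-fold lower (16.7%) and 1 higher (5.56%), against 4.43% and 11.3% of all genes. Egr3, an activity-induced zinc finger factor, had 8.54 in HD input against 10.47 in WT input, 3.81-fold lower in HD. Arc, which acts at synapses after activity, had 9.86 against 11.08, 2.33-fold lower. Nptx2, a secreted pentraxin of excitatory synapses, had 5.15 against 6.47, but its second probe set had 5.10 against 4.65. Egr1 went the opposite way, with 6.97 in HD input against 4.26 in WT input, and differed by 0.29 in CPEB1, -0.84 in CPEB4 and -2.39 in IgG. Fos did not pass the filter. Of the 4 members with an input value of at least 8, Egr3 and Arc lay below 0 and none was 2-fold higher. At that level 30.7% of all genes lay below 0 and 46.7% were 2-fold higher, but 4 members are few. The family's median lay close to that of all genes.

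Among growth factor genes, Ntrk2, the receptor of BDNF, had 7.03 in HD input against 10.18 in WT input, 8.89-fold lower in HD. None of its 4 further probe sets past the filter was 2-fold lower, and the brightest of these had 8.24 in HD input against 7.78 in WT input. The 10 genes of the BDNF and Trk list had a median of -0.15, with 2 higher and 1 lower. The sortilin relative Sorcs2 had 5.86 in HD input against 4.23 in WT input, and Shc3, a Trk adaptor, had 8.52 against 7.49.

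The cytosolic ribosomal proteins, the protein parts of the ribosome, had the highest list median in HD input on the deposited scale. Of 79 genes listed, 65 passed the filter, and 59 of those were in the top decile by level. Their median was 1.03, with 36 higher at 2-fold (55.4%), 2 lower and 10 below 0. Of the 60 members with an input value of at least 8, 32 were 2-fold higher, near the 46.7% of all genes at that level. Of all genes of the top decile 35.6% were 2-fold higher in HD, and relative to genes of the same level the median was 0.60. It was 0.56 after quantile normalization and 0.19 after cyclic loess. Of 44 further probe sets, 11 lay below 0, and their median was 0.82. Many ribosomal protein genes have processed pseudogenes with nearly the same sequence, so the share of a single gene in a probe set is uncertain.

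Rpl12 had 10.63 in HD input against 5.22 in WT input. Rpl39 had 7.91 against 3.25 and Rpl30 had 8.77 against 4.68. Rpl37 had 10.47 in HD input against 7.24 in WT input, and its 2 further probe sets past the filter had 10.36 against 7.76 and 8.59 against 7.44. Rps6, the ribosomal protein phosphorylated by S6 kinase, was the lowest of the group, with 7.63 in HD input against 9.50 in WT input, and Rps16 had 7.88 against 8.89. Rpl12, Rpl30 and Rps16 have no further probe set past the filter, and those of Rpl39 and Rps6 did not differ 2-fold the same way. In the precipitates the group's median was -0.70 for CPEB1, -0.09 for CPEB4 and -0.81 for IgG.

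Ribosomal protein mRNAs typically begin with a run of pyrimidines, the 5' terminal oligopyrimidine tract, through which their translation follows growth signals. Start sites are shown for the 6 members with the largest HD minus WT input difference among those with an entry in the RefSeq promoter table, to show how far these starts carry the tract. Each line runs 5' to 3' on the transcribed strand from 35 bases before to 15 bases from the annotated start, and capitals mark the longest run of C and T that touches the 5 bases either side of that start. The build is GRCm38.p6, and the positions are chr2:32961677-32961726 (+) for Rpl12, chrX:37085208-37085257 (-) for Rpl39, chr15:5116578-5116627 (+) for Rpl37, chr10:128626492-128626541 (-) for Rps26, chr5:65391417-65391466 (-) for Rpl9 and chr10:80292396-80292445 (+) for Rps15.
Rpl12: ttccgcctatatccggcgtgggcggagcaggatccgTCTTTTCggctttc
Rpl39: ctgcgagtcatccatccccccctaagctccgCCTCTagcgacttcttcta
Rpl37: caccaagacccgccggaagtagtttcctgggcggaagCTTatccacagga
Rps26: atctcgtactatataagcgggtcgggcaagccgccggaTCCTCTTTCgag
Rpl9: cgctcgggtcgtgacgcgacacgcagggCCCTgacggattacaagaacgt
Rps15: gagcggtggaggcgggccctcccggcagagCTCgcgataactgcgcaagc

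Runs of at least 7 such bases, searched on the transcribed strand, stood at the start of 22 of 51 ribosomal protein genes with an entry (43.1%). They stood at 5 of 45 oxidative phosphorylation genes (11.1%), at 17.0% of the 9072 compared genes with an entry and at 14.1% of all 32851 promoters in the table. The 22 ribosomal protein genes with such a run had a median input difference of 1.12, and the 29 without had 0.86. Over all compared genes the medians were -0.07 with a run and -0.08 without.

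Genes of oxidative phosphorylation, the respiratory chain and ATP synthase of mitochondria, were also higher in HD input. Of 76 listed, 55 passed, with a median of 0.77, 26 higher at 2-fold (47.3%), 3 lower and 9 below 0. Of all genes 11.3% were higher and 4.43% lower. The group kept a median of 0.72 relative to genes of the same level, 0.56 after quantile normalization and 0.63 after cyclic loess. On the deposited scale it stood below the ribosomal proteins, but it was above them relative to level and after cyclic loess, and equal after quantile normalization. Of its 33 members with an input value of at least 8, 24 were 2-fold higher, where 46.7% of all genes at that level were. Members such as Ndufa3 reach that level through HD input alone, so this count is no separate support. The group's 38 further probe sets had a median of 0.61, with 12 below 0. Ndufa3, a subunit of complex I, had 10.92 in HD input against 5.66 in WT input, and its second probe set had 10.93 against 5.14. Ndufa5 had 10.37 against 5.52, Ndufa6 had 9.80 against 6.41 and Sdhc, a membrane subunit of complex II, had 9.33 against 5.97. The second probe set of Ndufa5 did not differ 2-fold the same way, and Ndufa6 and Sdhc have no further one past the filter. The 3 genes lower at 2-fold were Cox7c, Ndufs6 and Sdhd, by -1.24 to -1.12. In the precipitates the median was -1.16 for CPEB1, 0.06 for CPEB4 and -0.74 for IgG.

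The proteins of the mitochondrial ribosome, which makes the chain's mitochondrially encoded subunits, had a median of 0.05 over 67 genes, with 32 below 0. Of the 67, 12 were 2-fold higher (17.9%) and 2 lower (2.99%), against 11.3% and 4.43% of all genes. Whether the mitochondrial ribosomal proteins differ from the oxidative phosphorylation genes was not tested. Mrps26 had 8.65 in HD input against 5.66 in WT input, and Mrpl52 had 7.69 against 5.43, with 2 of its 3 further probe sets also 2-fold higher in HD. The oxidative phosphorylation list holds brighter genes, with 30 of 55 in the top decile by level.

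Among heat shock proteins and their DNAJ partners, which fold and refold proteins, 34 genes had a median of 0.03, with 15 below 0. Of the 34, 7 were 2-fold higher (20.6%) and 1 lower (2.94%), against 11.3% and 4.43% of all genes. Hspa8, the constitutive cytosolic HSP70, had 9.95 in HD input against 7.06 in WT input, and its 2 further probe sets past the filter had 11.23 against 9.53 and 9.97 against 3.86. Cryab, a small heat shock protein of glia, had 10.50 against 8.11, and Hsp90b1, the HSP90 of the endoplasmic reticulum, had 7.46 against 4.73. The second probe sets of Cryab and Hsp90b1 did not differ 2-fold the same way. Hspa9, the mitochondrial HSP70, had 9.31 in HD input against 7.39 in WT input, and 1 of its 2 further probe sets was past 2-fold. Over the whole list 17 of 29 further probe sets lay below 0, with a median of -0.06, where 52.6% of all further probe sets did. Genes of the unfolded protein response had a median of -0.11 over 25, with 3 higher at 2-fold (12.0%), near the share of all genes, and none lower.

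The proteasome, which degrades tagged proteins, had a median of 0.05 over 34 genes, with 16 below 0. Of the 34, 6 were 2-fold higher (17.6%) and 4 lower (11.8%), against 11.3% and 4.43% of all genes. Psmd13 had 5.39 in HD input against 8.93 in WT input, and Psmd2 had 8.51 against 5.23, both subunits of the regulatory cap and on opposite sides. Autophagy genes had a median of 0.03 over 26, with 6 higher (23.1%), 2 lower (7.69%) and 13 below 0. Gabarapl1, a protein of the autophagosome membrane, had 10.38 in HD input against 7.69 in WT input, the kinase Ulk1 had 7.29 against 4.81, and the cargo receptor Nbr1 had 6.45 against 8.11 with its second probe set also 2-fold lower. The second probe sets of Gabarapl1 and Ulk1 did not differ 2-fold the same way. Cholesterol synthesis genes had a median of -0.15 over 13, with none past 2-fold either way.

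Synaptic genes had no direction that held across scalings. In the presynaptic list of 33, 7 were 2-fold higher (21.2%) and 2 lower (6.06%), against 11.3% and 4.43% of all genes. Its median was 0.21 with 12 below 0, but -0.16 after quantile normalization, -0.12 after cyclic loess and -0.04 relative to genes of the same level. In the precipitates its median was -1.06 for CPEB1, -0.44 for CPEB4 and -0.51 for IgG. Syp, a synaptic vesicle membrane protein, had 11.11 in HD input against 8.44 in WT input, Vamp2, a vesicle SNARE, had 10.50 against 7.89, and Syn1 had 8.03 against 6.08. The second probe set of Vamp2 did not differ 2-fold the same way, and Syp and Syn1 have no further one past the filter. Napb, a SNARE disassembly factor, was the lowest, at 3.16 in HD input against 7.55 in WT input, with neither of its 2 further probe sets past 2-fold. The postsynaptic scaffold list had a median of 0.03 over 28, with 2 higher and 1 lower, and -0.19 after quantile normalization. Both lists hold genes of every neuron, and not of the striatum alone.

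Among receptors and channels single genes stood out. Gria1, an AMPA receptor subunit, had 10.24 in HD input against 7.49 in WT input, and its second probe set had 8.09 against 4.53. The 17 glutamate receptor genes had a median of -0.02, with 2 higher and none lower at 2-fold, and Grm5 had 7.13 in HD input against 8.03 in WT input. Gabrd, the delta subunit of GABA-A receptors outside synapses, had 5.50 in HD input against 8.18 in WT input, and its second probe set had 5.57 against 6.65. The other 6 GABA-A subunits differed by less than 2-fold. Potassium channel genes had a median of -0.04 over 32, with 5 higher (15.6%) and 2 lower (6.25%), against 11.3% and 4.43% of all genes. The 2 lower ones were Kcnk1, a leak channel, at 5.23 in HD input against 7.77 in WT input, and Kcnj4, an inward rectifier, at 7.16 against 9.06. The second probe set of Kcnk1 did not differ 2-fold the same way, and Kcnj4 has no further one past the filter.

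Tubulins and microtubule proteins had a median of 0.36 over 29 genes, with 8 below 0. Of the 29, 9 were 2-fold higher (31.0%) and 4 lower (13.8%), against 11.3% and 4.43% of all genes. Dclk1, a microtubule-binding kinase, had 9.77 in HD input against 5.92 in WT input, and Map6, which stabilises microtubules, had 5.56 against 8.65. Neither had a further probe set past 2-fold the same way. In the CPEB1 precipitates the same list had a median of -1.05.

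Markers of other cell types of striatum and its neighbours showed no common shift. Among 18 astrocyte genes 3 were 2-fold higher (16.7%) and 2 lower (11.1%), against 11.3% and 4.43% of all genes. Their median was -0.11, with 11 below 0, and their mean level was 7.44 in HD input and 7.30 in WT input. The list's 8 further probe sets leaned the other way, with 2 below 0 and a median of 0.52. Gfap, the filament protein of reactive astrocytes, had 8.61 in HD input against 6.13 in WT input, 5.57-fold higher in HD. Gja1, connexin 43, had 9.42 against 7.13, and Apoe, a lipid carrier, had 8.58 against 6.59. Aldh1l1 had 4.47 in HD input against 5.64 in WT input, and the brightest astrocyte gene, the glutamate transporter Slc1a2, had 11.23 against 11.30. The 3 higher genes thus stood apart from the rest of the list, and none of them has a further probe set past the filter.

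Microglial genes had a median of -0.03 over 12 of 20 listed, with none higher and 1 lower, P2ry13, at 4.30 in HD input against 5.70 in WT input. Myelin and oligodendrocyte genes had a median of 0.16 over 16, with 2 higher, 1 lower and 8 below 0. Mbp, the main myelin protein, had 10.44 in HD input and 10.68 in WT input. Mobp had 8.75 in HD input against 10.26 in WT input on its chosen probe set and 7.34 against 4.80 on another. Endothelial and mural genes had a median of -0.20 over 14. The list of striatal interneuron genes, with peptides, calcium-binding proteins and cholinergic genes but also Gad1 and Gad2, had a median of 0.27 over 13. In it 1 gene was higher, none lower and 6 below 0. Gad1, which makes GABA in all striatal inhibitory neurons, had 9.66 in HD input against 8.82 in WT input, and Pvalb had 8.11 against 7.25. The highest member, and the only one 2-fold higher, was Gad2, the other GABA-making enzyme, at 5.98 in HD input against 4.32 in WT input. Medium spiny neurons make Gad1 and Gad2 too, so this list is not one of interneurons alone. Relative to genes of the same level the list's median was 0.06. In the CPEB1 and IgG precipitates these 3 genes were lower in HD: Gad1 differed by -2.47 in CPEB1 and -2.23 in IgG, Pvalb by -2.88 and -1.33, and Gad2 by -1.44 and -1.81. In CPEB4 Gad1 differed by 0.38, Pvalb by -0.46 and Gad2 by -2.03. The list's median was -0.33 in CPEB1, 0.34 in CPEB4 and -0.33 in IgG. Whether the interneuron and medium spiny neuron lists differ was not tested.

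The choroid plexus, which lines the ventricle beside the striatum and makes cerebrospinal fluid, is marked above all by Ttr, the thyroxine carrier. Ttr had 10.49 in HD input against 6.60 in WT input, 14.8-fold higher in HD, and its second probe set had 10.76 against 8.69. It was higher in HD also in the precipitates, by 1.45 in CPEB1, 2.11 in CPEB4 and 1.36 in IgG. Clic6, a chloride channel protein, had 8.45 in HD input against 4.68 in WT input but differed by -0.72 in CPEB1, 0.54 in CPEB4 and 0.73 in IgG. The other 7 genes of this list of 9 past the filter lay between -0.74 and 0.22, its median was -0.25, and its mean level was 6.48 in HD input and 5.85 in WT input. The part of tissue taken along at dissection in the Ttr value was not tested. Cortical excitatory neuron genes had a median of -0.11 over 11 of 17, with 1 lower at 2-fold, Slc17a7, at 5.37 in HD input against 6.50 in WT input, and genes of thalamus, septum and pallidum had 0.29 over 6. Blood genes disagreed among themselves, with Hbb-b2 at 7.91 in HD input against 10.05 in WT input and Hba-a1 at 12.53 against 11.92.

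**Figure D5:**
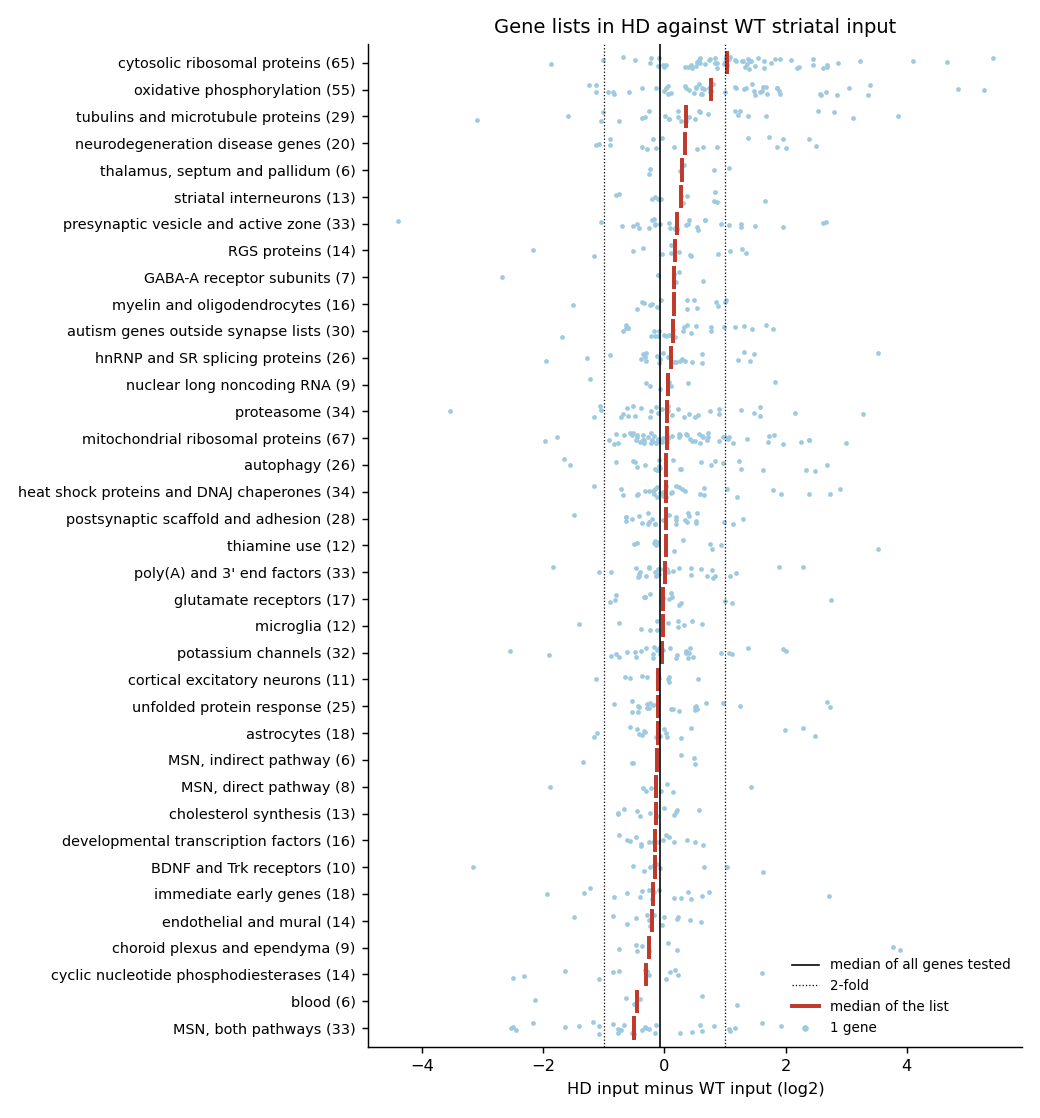
Each row is a gene list with at least 5 genes past the filter, with their number in brackets; blue points are its genes and the red bar its median, HD minus WT input on the horizontal axis (log2). The black line is the median of all genes, -0.08, and dotted lines mark 2-fold. Ribosomal proteins (1.03) and oxidative phosphorylation (0.77) stand at the top, and medium spiny neuron genes of both pathways (-0.50) at the bottom.

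Htt, the gene of huntingtin, had 5.85 in HD input against 6.15 in WT input, and its 2 further probe sets past the filter differed by 0.18 and 0.07; what these probes see of a modified allele is not known here. Genes of other neurodegenerative diseases and of huntingtin partners had a median of 0.35 over 20, with 7 higher, 2 lower and 9 below 0, and of 0.14 relative to genes of the same level. Atxn10 had 10.35 in HD input against 7.85 in WT input, Atn1 had 7.52 against 5.13, the superoxide dismutase Sod1 had 8.97 against 6.95, and the huntingtin-associated Hap1 had 5.76 against 3.80. None of these 4 had a further probe set past 2-fold.

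Of the CPEB family that the study precipitated, only Cpeb3 passed the filter, at 7.58 in HD input and 7.14 in WT input. Cpeb1, Cpeb2 and Cpeb4 lay below it in the mean of the 8 arrays, so their transcript levels were not compared. The factors of poly(A) tails and 3' end processing had a median of 0.01 over 33, with 4 higher, 2 lower and 16 below 0. Pabpn1, the nuclear poly(A) binding protein, had 8.51 in HD input against 6.21 in WT input, and its second probe set had 7.82 against 5.15. Fip1l1, of the cleavage and polyadenylation complex, had 7.66 against 5.76, and the deadenylase Cnot8 had 6.59 against 8.42. Splicing factors had a median of 0.12 over 26. Srsf2 had 10.46 in HD input against 6.93 in WT input, and Mbnl1, which controls splicing and is bound by CUG repeats, had 4.39 against 6.34. The thiamine transporter Slc19a3 did not pass the filter, and the 12 genes of thiamine use had a median of 0.02 with 1 past 2-fold, Dlst, of a thiamine-dependent enzyme complex, at 8.38 in HD input against 4.85 in WT input. Autism genes outside the synapse lists had a median of 0.13 over 30, with 5 higher and 1 lower, among them Reln at 7.99 in HD input against 6.20 in WT input and Myt1l at 4.12 against 5.81. No further probe set of Fip1l1, Cnot8, Srsf2, Dlst or Myt1l past the filter differed 2-fold the same way. Malat1, a nuclear noncoding RNA, had 7.72 in HD input and 7.33 in WT input.

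Beyond the lists, the genes with the largest differences were read only where a second probe set was 2-fold different in the same direction. Of 607 genes higher in HD with a further probe set, 164 had such a one, and of 194 lower in HD, 20. The largest higher value was that of Cyb5r3, a reductase of cytochrome b5, with 10.00 in HD input against 4.61 in WT input on the chosen probe set and 6.22 against 4.23 on a second one, while its other 2 differed by 0.64 and 0.10. Hsbp1, a binding protein of the heat shock factor, had 9.46 in HD input against 4.51 in WT input, and 9.15 against 7.14 on its second probe set. Elob, of elongin and ubiquitin ligase complexes, had 11.07 against 6.62, and 8.36 against 6.92 on its second. Calm2, 1 of the calmodulin genes, had 9.95 against 5.76, and 7.51 against 6.42 on its second. Hk1, the hexokinase of brain, had 8.65 in HD input against 4.94 in WT input, and 7.46 against 5.80 on its second. Nucks1, Cct3, Timp2, Akr1a1, Ids, Gtf2i, Nacc2 and Ube2f followed with differences of 5.32, 4.38, 4.23, 4.19, 3.85, 3.64, 3.64 and 3.60, and each of these 8 had also further probe sets that did not pass 2-fold.

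On the lower side, Timm10b, of the mitochondrial import machinery, had 5.42 in HD input against 8.93 in WT input, and 3.43 against 9.76 on its second probe set. Pacs2, a sorting protein, had 6.79 against 9.49, and 4.29 against 5.56 on its second. Cdk5r1, the activator p35 of the neuronal kinase Cdk5, had 5.94 in HD input against 8.55 in WT input, and 6.77 against 8.23 on a second probe set, but 6.57 against 5.47 on another. Gabrd and Arpp21, given with their families, belong here too. Of the 20 lower genes with such a second probe set, the 15 with the largest differences are named, and the other 10 of these were Dnaic1, Anp32a, Nfic, Cdk4, Man2c1, Lamtor2, Tpm1, Prpf19, Grk6 and Nbr1, with differences between -2.25 and -1.43. Of all 272 further probe sets of lower genes, 7.35% were 2-fold lower, against 3.95% of all further probe sets, and of the 964 of higher genes 19.0% were 2-fold higher, against 11.8%.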

How the data were processed

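The authors summarised each probe set on a log2 scale with RMA, as the submitters' processing notes name it. No version is given in the sources used here, nor whether RMA was run on all 8 arrays at once. The deposited log2 values were used unscaled. Of 45101 probe sets, 28898 had 1 gene symbol in the platform annotation, 551 several and 15652 none; 28689 were matched to RefSeq names of GRCm38.p6. For each of 17097 genes the single-symbol probe set of highest 8-array mean was taken, and 11345 genes with a mean above 4.23 were kept. Differences were computed in Python 3.11.15, and quantile and cyclic loess scaling in limma 3.58.1 with R 4.3.3. With 1 array per group there was no test, SD or p, and genes past 2-fold were counted. The counting was checked on simulated data with planted differences and no noise. That check says nothing of how well a probe set measures its gene. The number of arrays limits the precision. The 40 lists and the members were chosen with earlier results of these data known. Named genes were the 15 largest and 15 smallest differences with a further probe set 2-fold the same way, up to 4 genes per list by absolute difference, and a fixed set of striatal, CPEB and activity genes. List members named beyond these (Ptpn5, Itpka, Ppp1r16b, Pcp4, Tmem158, Adcy5, Camk4, Foxp1, Gnal, Pde6d, Rps6, Rps16, Rps26, Rpl9, Rps15, Cox7c, Ndufs6, Sdhd, Mbp and Slc1a2) were chosen after their values were seen. Start sites came from the RefSeq promoter table.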

Additional observations from a re-analysis of the deposited data

Results flagged for a closer look

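In 3 gene lists the HD minus WT median lay above 0 in input and below 0 in precipitates of the same pools. They were picked by a 95% binomial interval of the median over the list's genes lying on 1 side of 0 in each fraction; genes are not replicates, so this supports no difference between the fractions, and none was tested. Cytosolic ribosomal proteins had 1.03 in input, against -0.70 in the CPEB1 precipitates and -0.81 in the IgG precipitates. Of these genes 59 of 65 are in the top decile by input level, whose median over all genes was 0.46 in input, -0.77 in CPEB1 and -0.33 in IgG, so in CPEB1 they did not stand below bright genes in general. Oxidative phosphorylation genes, with 30 of 55 in that decile, had 0.77 in input, against -1.16 in CPEB1 and -0.74 in IgG. Tubulins and microtubule proteins, with 11 of 29 there, had 0.36 in input, against -1.05 in CPEB1. The HD array was the wider one in input and the WT array in each precipitate, and the part of this was not tested.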

How the results depend on the processing

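No paired analysis was possible because each genotype has 1 input array; for the same reason no array could be left out. Under other filters, probe set rules and scalings, the genes 2-fold higher in HD input were between 866 and 1391. The 866 were of 10100 genes (mean of a gene's probe sets) and the 1391 of 11345 (median centring). The genes lower were between 311 of 10100 (mean of a gene's probe sets) and 791 of 11351 (quantile normalization). Counting each of 16152 probe sets on its own gave 1846 probe sets higher and 693 lower. At 1.5-fold the counts were 1928 higher and 1561 lower, and at 3-fold 735 and 229. Restricted to genes whose higher input value was at least 8, an alternative chosen after seeing the data like the correction by deciles of level, they were 649 and 172. The median of all genes was 0.016 after median centring, -0.094 after quantile normalization and -0.030 after cyclic loess. The median of the medium spiny neuron list was -0.81 after quantile normalization and -0.89 after cyclic loess. That of ribosomal proteins was 0.56 after quantile normalization, 0.19 after cyclic loess and 0.60 relative to genes of the same level. That of oxidative phosphorylation was 1.58 among genes of at least 8, a set that genes enter through the pool where they are higher. The cause of these shifts was not tested. Of 348 recomputed list medians 288 kept their sign.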
